A study of Homo sapiens with 6 samples.

Results

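The MYB proteins, the subunits of the MuvB core and the forkhead factor FOXM1 were followed as 8 listed genes: MYB, MYBL1, MYBL2, LIN9, LIN37, LIN52, LIN54 and FOXM1. The count table held 63140 genes, of which 17427 passed a filter on low counts, and all 8 listed genes were among these. The cells were HEK293T, an established line derived from human embryonic kidney. They received either the duplex of miR-34a or a negative control, AllStars of Qiagen, by transfection. RNA was collected 18 h later, and each group had 3 libraries, described as biological replicates. The study asks how structural features of a microRNA bound to its target bear on repression. HEK293T cells carry the adenoviral E1A protein and the SV40 large T antigen, both of which bind the pocket proteins of the RB family, and this is shared by the 2 groups. The 8 genes were chosen by name from the pathway, with their fold changes between the miR-34a and control libraries already known. These fold changes and calls are therefore given as a description, and no weight is put on how many of them were called.

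MuvB is a small core of LIN proteins that works as a transcriptional switch in the cell cycle. In quiescent cells it joins a pocket protein, an E2F and a DP partner to form the DREAM complex, which represses cell-cycle genes. In dividing cells the same core binds MYBL2 (B-MYB) and then FOXM1, and this form activates genes of late cell cycle. The gene of miR-34a is activated by p53. A microRNA guides Argonaute proteins to mRNAs, chiefly through pairing of its seed, bases 2 to 8, and lowers their levels.

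The mature miR-34a strand and the seed matches found in the 8 genes are shown first, because seed matches are the sites by which a microRNA is chiefly known to recognise mRNAs. The shortest kind, the 6mer explained below, was searched for in the 3′ UTR only and not in the coding sequence. Within that limit MYBL1, LIN9 and LIN37 held none. The mature sequence is that of RefSeq (GRCh38.p14, minus strand of chromosome 1, 9151735 to 9151756), 5′ to 3′, with the seed in capitals.
hsa-miR-34a-5p: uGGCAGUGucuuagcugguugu
Below are the 8 matches found in the 3′ UTR and in the coding sequence of the genes, each with the bases just upstream, taken from GENCODE release 29 transcripts. They are written 5′ to 3′ as DNA, with the match in capitals.
MYB, 7mer-m8, 3′ UTR: tggttgatagccagtCACTGCC
MYB, 6mer, 3′ UTR: atatgacggtgtacttACTGCC
FOXM1, 7mer-A1, 3′ UTR: gatcattatccagagACTGCCA
LIN52, 6mer, 3′ UTR: agggtgtacctccaggACTGCC
MYBL2, 7mer-m8, coding: agctgatgatgtccaCACTGCC
FOXM1, 7mer-A1, coding: atcatcacagcactgACTGCCA
LIN54, 8mer, coding: catgcctgccacacCACTGCCA
LIN54, 7mer-A1, coding: tatgtccgacttgttACTGCCA
A 7mer-m8 pairs with bases 2 to 8 of the microRNA, a 7mer-A1 with bases 2 to 7 followed by an A, an 8mer with both, and a 6mer with bases 2 to 7 alone.

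Of the 8 genes, 2 held a 7mer or 8mer match in the 3′ UTR, MYB and FOXM1. Among 12948 tested genes with a 3′ UTR of at least 50 bases, 20.9% held such a match. The MYB match lies in the last of 16 exons on chromosome 6 at 135219065 to 135219071 (GRCh38, plus strand) and starts at base 1085 of a 3′ UTR of 1187 bases. Its 6mer follows at base 1151. The FOXM1 match lies in the last of 10 exons on chromosome 12 at 2858223 to 2858229 (minus strand), at base 409 of a 3′ UTR of 955 bases. LIN52 held a single 6mer at base 117 of its 3′ UTR, within the final exon (chromosome 14, 74199094 to 74199099, plus strand). No match of any of the 4 kinds was found in the 3′ UTR searched of MYBL1, MYBL2, LIN9, LIN54 or LIN37, the last of which has only 45 bases. In the coding sequence, MYBL2 held a 7mer-m8 (chromosome 20, 43713084 to 43713090, exon 12 of 14), FOXM1 a 7mer-A1 (chromosome 12, 2874199 to 2874205, exon 2) and LIN54 an 8mer (chromosome 4, 82939647 to 82939654, exon 7 of 13) and a 7mer-A1 (82946327 to 82946333, exon 5). A coding match of the 7mer or 8mer kind was found in 27.9% of tested protein-coding genes.

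Beyond the seed, the longest run of the 15 bases upstream of the seed match that was complementary to bases 9 to 22 of miR-34a was 4 bases for the MYB 7mer-m8 and 4 for the FOXM1 3′ UTR match. A run of at least 4 was found at 37.8% of 4386 matches of the 7mer or 8mer kind in all 3′ UTRs. Where the best match was a 7mer-m8, as in MYB, 17.1% of 1332 genes fell with miR-34a. The share was 15.3% of 699 genes for the 7mer-A1, the class of FOXM1. It was 9.95% of 1296 genes for the 6mer, the class of LIN52, and 4.90% of 8942 genes without a match.

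Within the MYB family the 3 paralogues moved apart: MYB and MYBL2 fell with miR-34a and MYBL1 rose. Levels are CPM, the read count of a gene per 1000000 counts of a library, on library sizes scaled by the TMM method, and a gene is called fallen or risen when its adjusted p in an edgeR quasi-likelihood test over all 17427 genes is under 0.05. By that test 6 of the 8 genes were called, 3 lower and 3 higher, while 12.1% of all tested genes were called, 6.70% lower and 5.38% higher. The CPM of the groups did not overlap for these 6 genes, and the same held for 27.3% of all tested genes. In bulk RNA, fewer cells that express a gene and less RNA per cell cannot be told apart.

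**Figure D1:**
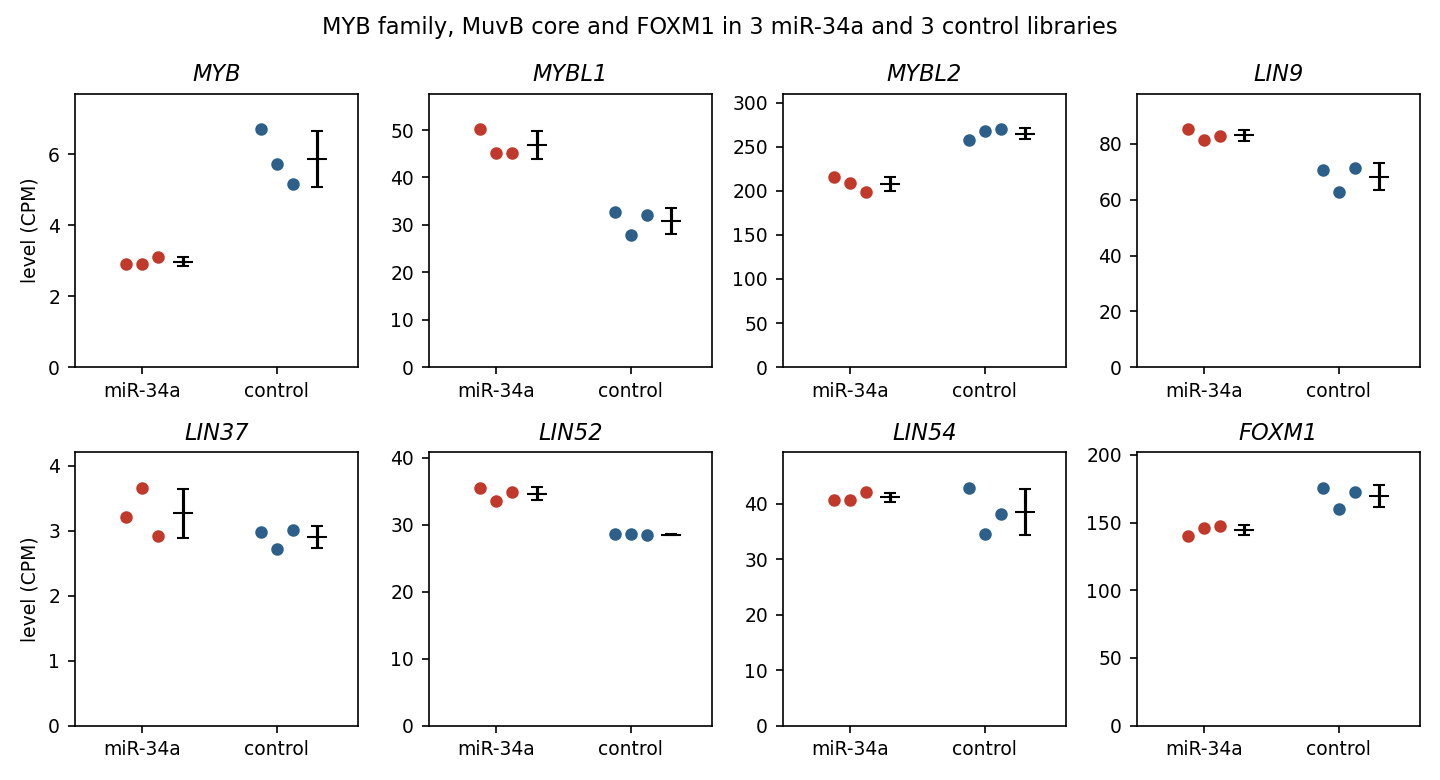
Level of each of the 8 genes in CPM (vertical axes, each from 0) in the 3 miR-34a libraries (left, red) and the 3 control libraries (right, blue). Points are libraries, in the order of replicates 1 to 3, and bars give the mean and SD; the groups overlap only for LIN37 and LIN54.

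MYB encodes c-MYB, an activator best known for keeping blood progenitors dividing (chromosome 6, 135181315 to 135219173, plus strand). Its level was 2.90, 2.91 and 3.11 CPM in the miR-34a libraries, against 6.71, 5.73 and 5.16 CPM in the control libraries. Every miR-34a library lay well under the lowest control library. The log2 fold change was -0.97 ± 0.16 (SE), a level 1.96-fold lower, with an adjusted p of 0.00015 by edgeR. MYB is a weakly expressed gene here: its values rest on 73, 85 and 115 reads with miR-34a and 164, 188 and 166 reads in the control, so its interval, from -1.31 to -0.63 (95%), is wide.

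MYBL1, or A-MYB, is known in mice as a regulator of meiotic and piRNA genes in spermatocytes (chromosome 8, 66562175 to 66614247, minus strand). It rose to 50.2, 45.2 and 45.1 CPM in the miR-34a libraries, against 32.8, 27.8 and 32.2 CPM in the control libraries. The lowest miR-34a library lay above the highest control library by more than the SD of either group (2.90 CPM with miR-34a and 2.74 CPM in the control, n = 3). The log2 fold change was 0.60 ± 0.08 (SE), a 1.52-fold rise (edgeR adjusted p = 1.1e-05).

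MYBL2, or B-MYB, is the family member that most dividing cells use and the MYB partner of MuvB (chromosome 20, 43667019 to 43716496, plus strand). Its level was 215, 209 and 199 CPM with miR-34a, against 257, 267 and 270 CPM in the control. The groups were separate, and the fall was modest: a log2 fold change of -0.35 ± 0.07 (SE), 1.28-fold (edgeR adjusted p = 0.00056). It has no seed match in the 3′ UTR searched, and its single match, printed above, lies in the coding sequence.

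Set on a common scale of CPM per kilobase of exonic length, MYBL2 made up most of the family in every library. It accounted for 91.2, 91.7 and 91.3% of the summed MYB-family level with miR-34a, against 94.2, 95.2 and 94.8% in the control. MYBL1 accounted for 8.16, 7.63 and 7.95% with miR-34a, against 4.60, 3.79 and 4.33% in the control. The share of MYB was 0.621, 0.647 and 0.723% with miR-34a, against 1.24, 1.03 and 0.916% in the control. No share overlapped between the groups. These 3 shares are parts of a whole, so they are not independent of each other.

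Of the 4 MuvB core genes listed, LIN9 and LIN52 rose, and LIN37 and LIN54 did not pass the test. LIN9, the scaffold subunit (chromosome 1, 226231149 to 226309869, minus strand), stood at 85.2, 81.4 and 82.7 CPM with miR-34a, against 70.6, 62.9 and 71.4 CPM in the control. All 3 miR-34a libraries were above all 3 control libraries. The log2 fold change was 0.28 ± 0.07 (SE), 1.22-fold (edgeR adjusted p = 0.0087); without control replicate 2, the lowest of its group, it was 0.23 and the adjusted p was 0.055.

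LIN52 is the subunit that the kinase DYRK1A phosphorylates to bring in a pocket protein, and it also contacts B-MYB (chromosome 14, 74084796 to 74201235, plus strand). Its level was 35.5, 33.5 and 34.9 CPM with miR-34a, against 28.6, 28.6 and 28.4 CPM in the control. The control libraries were nearly equal, and the lowest miR-34a library lay above them. The log2 fold change was 0.28 ± 0.08 (SE), 1.21-fold (edgeR adjusted p = 0.017). The call was lost without miR-34a replicate 1 (adjusted p = 0.060), miR-34a replicate 3 (0.051) or control replicate 3 (0.068), with log2 fold changes of 0.26, 0.27 and 0.28.

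LIN54 is the DNA-binding subunit, which reads the CHR element of late cell-cycle promoters (chromosome 4, 82909973 to 83012926, minus strand). Its level was 40.6, 40.7 and 42.1 CPM with miR-34a, against 42.9, 34.6 and 38.1 CPM in the control, and the groups overlapped. The log2 fold change was 0.10 ± 0.08 (SE), with a 95% interval from -0.07 to 0.27. Its coding match was the only 8mer found in the coding sequences and 3′ UTRs searched of the 8 genes.

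LIN37, a subunit needed for repression by DREAM (chromosome 19, 35748361 to 35754519, plus strand), was measured least precisely. It stood at 3.22, 3.66 and 2.92 CPM with miR-34a, against 2.99, 2.71 and 3.01 CPM in the control. The groups overlapped, and the log2 fold change was 0.17 ± 0.18 (SE), with a 95% interval from -0.21 to 0.55. LIN37 shares 41.8% of its exonic length with an antisense gene on the opposite strand and 26.7% with a gene on its own strand. These neighbours were counted at no more than 0.0819 CPM on average. How reads in shared exons were counted is not given in the sources used here, so the level of LIN37 is uncertain.

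**Figure D2:**
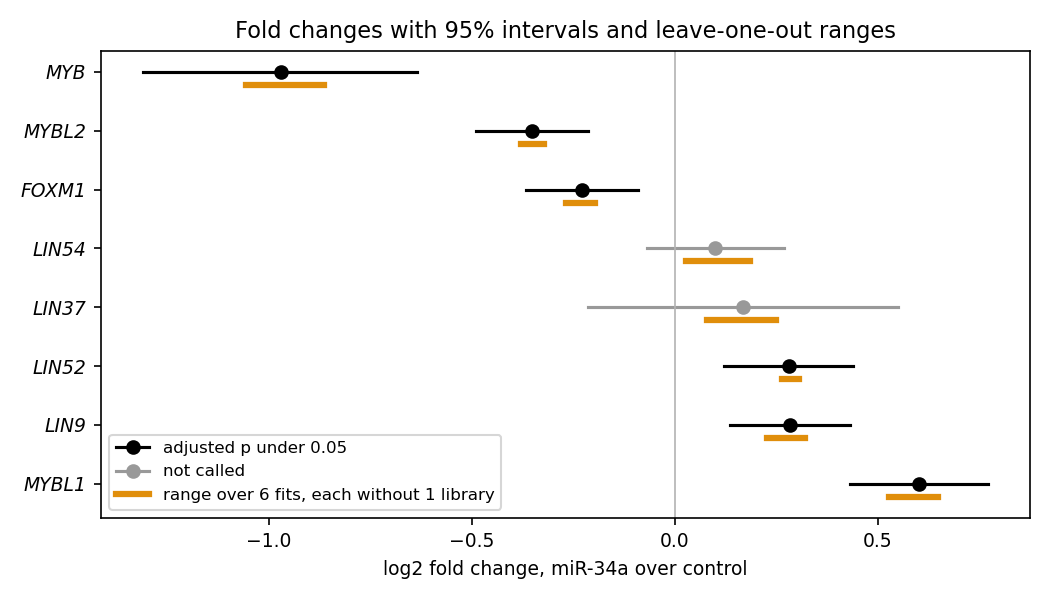
Log2 fold change, miR-34a over control (horizontal axis), for the 8 genes, with the 95% interval of the edgeR fit as a thin line. Black marks genes with an adjusted p under 0.05 and grey the others; the orange bar spans the 6 fits that each leave out 1 library, and it stays on the same side of 0 for each of the 8 genes.

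FOXM1, a forkhead activator that joins MYBL2 and MuvB on promoters of mitotic genes (chromosome 12, 2857681 to 2877155, minus strand), fell slightly. Its level was 140, 146 and 148 CPM with miR-34a, against 176, 160 and 173 CPM in the control. The groups did not overlap, but the lowest control library was only 8.69% above the highest miR-34a library. The log2 fold change was -0.23 ± 0.07 (SE), 1.17-fold (edgeR adjusted p = 0.025). The call ended when any of 4 libraries was left out, replicates 1 and 2 of miR-34a and replicates 1 and 3 of the control (adjusted p = 0.075 to 0.12, log2 fold changes from -0.23 to -0.20). FOXM1 shares 15.9% of its exonic length with ITFG2 on the opposite strand, but ITFG2 stood at 3.42 CPM per kilobase in the control, against 34.6 for FOXM1, and did not pass the test (log2 fold change -0.06).

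Per kilobase of exonic length the 8 genes spanned a wide range. In the control libraries the order was MYBL2 (95.4 ± 2.36 CPM per kilobase), FOXM1 (34.6 ± 1.67), LIN9 (15.4 ± 1.06), LIN52 (7.73 ± 0.0291), LIN54 (5.69 ± 0.615), MYBL1 (4.27 ± 0.378), MYB (1.07 ± 0.142) and LIN37 (1.03 ± 0.0589), each as mean ± SD with n = 3. MYB and LIN37 overlapped there and had no order. With miR-34a the first 4 places were the same, with MYBL2 at 74.7 ± 3.01, FOXM1 at 29.5 ± 0.778, LIN9 at 18.7 ± 0.439 and LIN52 at 9.38 ± 0.276 CPM per kilobase (SD, n = 3). MYBL1 (6.47 ± 0.401) and LIN54 (6.08 ± 0.123) then differed by less than the SD of MYBL1, and MYB came last at 0.541 ± 0.0214, below LIN37 at 1.16 ± 0.133 (SD, n = 3). The levels depend on the exons annotated for each gene, and no isoform was measured. The place of LIN37 is uncertain, because it shares exons with other genes and the treatment of shared reads is not given.

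**Figure D3:**
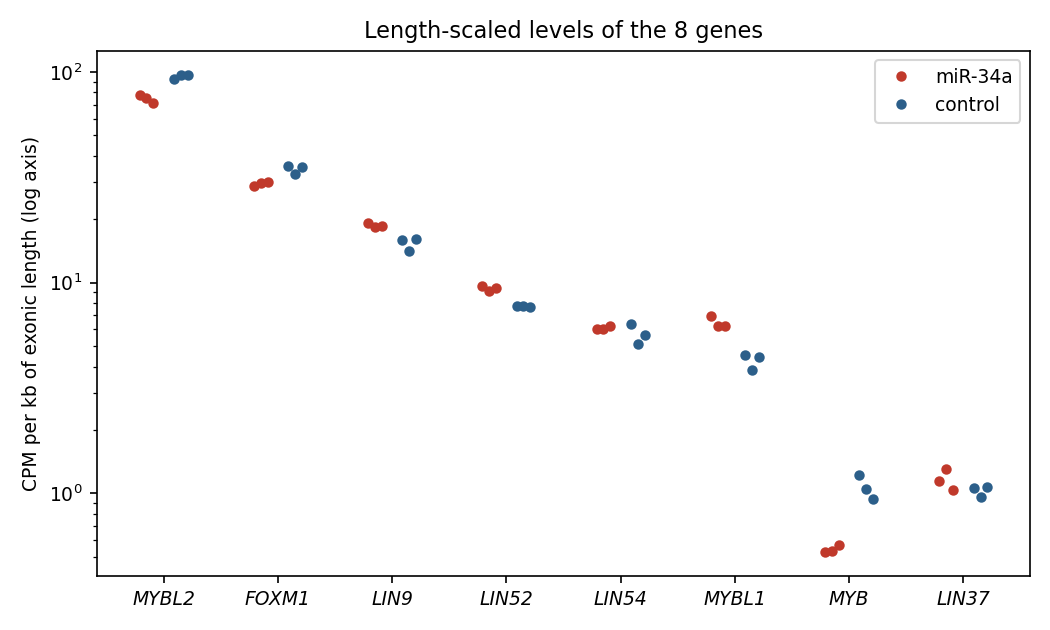
Level of the 8 genes per kilobase of exonic length (vertical axis, log scale) in each miR-34a library (red, left of each pair) and control library (blue). MYBL2 is highest and FOXM1 next in all 6 libraries, and MYB is below LIN37 in each miR-34a library. The level of LIN37 is uncertain, because it shares exons with other genes.

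A list of 9 other genes around the core held the histone-binding subunit RBBP4, the E2F, DP and pocket protein genes E2F4, E2F5, TFDP1, TFDP2, RBL1 and RBL2, the related pocket protein gene RB1 and the kinase gene DYRK1A. Of the 9, 1 fell, 2 rose and 6 did not pass, against 6.70% fallen and 5.38% risen over all tested genes. The median log2 fold change was 0.06, against -0.004 over all tested genes. The pocket proteins p107 and p130, encoded by RBL1 and RBL2, rose. RBL1 stood at 53.1, 51.9 and 54.6 CPM with miR-34a, against 45.7, 44.6 and 41.7 CPM in the control (log2 fold change 0.27 ± 0.07 SE, edgeR adjusted p = 0.013). RBL2 stood at 86.9, 92.5 and 97.4 CPM with miR-34a, against 81.4, 72.1 and 74.6 CPM in the control (0.28 ± 0.07, adjusted p = 0.010). The groups did not overlap for either gene, but the calls were not firm: neither passed without miR-34a replicate 3 (adjusted p = 0.052 for RBL1 and 0.056 for RBL2) or control replicate 3 (0.099 and 0.057), and RBL2 was also lost without control replicate 2 (0.059).

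E2F5, a repressive E2F that can sit in DREAM, fell to 17.1, 14.4 and 14.0 CPM with miR-34a, against 35.2, 31.2 and 29.3 CPM in the control. It shares 16.3% of its exonic length with RBIS on the opposite strand. At 12.3 CPM per kilobase RBIS was above E2F5 (5.38) in the control, so the value of E2F5 is uncertain. RBIS itself did not pass the test (log2 fold change -0.14). RBBP4, the histone-binding subunit of MuvB, was looked at outside the naming rule, after its values were seen. It stood at 370 ± 12.9 CPM with miR-34a and 386 ± 12.2 CPM in the control (SD, n = 3). Its log2 fold change of -0.06 ± 0.07 (SE) did not pass (edgeR adjusted p = 0.65).

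In a list of 14 regulators of MYBL2 and FOXM1, among them kinases and cyclins, 5 fell, 1 rose and 8 did not pass, with a median of -0.11 (all tested genes: 6.70% fell and 5.38% rose). CDK6 stood at 49.5, 49.7 and 49.5 CPM with miR-34a, against 97.2, 89.5 and 91.2 CPM in the control, a log2 fold change of -0.90 ± 0.07 (SE). Of the D-type cyclins, which pair with CDK4 and CDK6, CCND1 and CCND3 were listed and CCND2 was not. Both listed cyclins were lower too, CCND1 with a log2 fold change of -0.74 and CCND3 with -0.41. CCND1 shares 10.3% of its exonic length with LTO1, which is as highly expressed per kilobase (3.80 against 3.67), so the value of CCND1 is uncertain. LTO1 did not pass the test (log2 fold change -0.04). CDK4 had a log2 fold change of -0.96 and shares 43.2% of its exonic length with the less expressed TSPAN31. TSPAN31 did not pass the test either (log2 fold change -0.09). CDC27, a subunit of the anaphase-promoting complex, rose, with a log2 fold change of 0.29. Of 14 cofactors and regulators of c-MYB, 1 fell and none rose by edgeR, with a median of 0.03. The share called was 7.14%, against 12.1% of all tested genes. At 1 gene of 14, the count is too small to be a result about the list. At an unadjusted p under 0.05, 3 were higher, and DESeq2 called 0 higher. The gene that fell was SKI, a transcriptional repressor, at 89.0 ± 8.60 CPM with miR-34a and 124 ± 8.40 CPM in the control (SD, n = 3; log2 fold change -0.48, edgeR adjusted p = 9.1e-05).

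Of 60 late cell-cycle genes, which MYBL2, MuvB and FOXM1 are known to activate, 1 fell, 7 rose and 52 did not pass, and the median log2 fold change was 0.09. The share called, 13.3%, was near the 12.1% called over all tested genes, so the pooled count is not a result about the list. By direction, 6.70% of all tested genes fell and 5.38% rose. In the list 43 genes were above 0 and 16 below, while 50.65% of all tested genes were below 0. Whether the list leans upward was not tested. ANLN, a scaffold of the cytokinetic ring, stood at 258, 268 and 284 CPM with miR-34a, against 194, 161 and 185 CPM in the control, a log2 fold change of 0.59 ± 0.07 (SE, edgeR adjusted p = 3.2e-06). The mitotic kinase NEK2 stood at 113, 118 and 108 CPM with miR-34a, against 81.3, 77.3 and 90.5 CPM in the control (0.44 ± 0.07, adjusted p = 0.00012). For both genes all miR-34a libraries were above all control libraries.

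The kinesin KIF14 and the spindle protein CKAP2L also rose, with log2 fold changes of 0.35 and 0.31, while CKAP2L lost its call without control replicate 2 (0.23, adjusted p = 0.070). The gene of the list that fell was PIMREG, a mitotic regulator, with a log2 fold change of -0.37 (adjusted p = 0.0014). The summed level of the 60 genes ranged from 9449 to 9667 CPM with miR-34a and from 8282 to 8967 CPM in the control. The number that rose depended on single libraries and on the tool. It was 13 without control replicate 1, 4 without control replicate 2 and 14 by DESeq2.

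Of 38 genes of the G1/S boundary, which DREAM is known to repress in quiescent cells, 10 fell, 1 rose and 27 did not pass, against 6.70% fallen and 5.38% risen over all tested genes. The median log2 fold change was -0.07, with 24 genes below 0 and 14 above. TK1, thymidine kinase, stood at 58.7, 45.7 and 48.3 CPM with miR-34a, against 101, 123 and 102 CPM in the control. The helicase subunit MCM3 stood at 325, 309 and 299 CPM with miR-34a, against 484, 488 and 480 CPM in the control. GMNN, an inhibitor of replication licensing, had a log2 fold change of -0.63 and the replication factor GINS1 one of -0.45. The gene that rose was BRCA1, a DNA repair factor, with a log2 fold change of 0.33 ± 0.07 (SE). No test of the late list against the G1/S list was made.

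Genes reported as targets of c-MYB in blood cells were in part below the filter: 11 of 15 were tested, 2 fell and none rose by edgeR, with a median log2 fold change of -0.23. The share called was 18.2%, against 12.1% of all tested genes, of which 6.70% fell. At 2 genes of 11, the count is too small to be a result about the list. LMO2, at 12 to 64 reads a library, and TAL1, at 10 to 52, were close to the filter on low counts. Of the list, no gene was higher at an unadjusted p under 0.05 (0 of 11) or by DESeq2 (0). KIT, a receptor tyrosine kinase of progenitor cells, stood at 11.3, 11.1 and 13.1 CPM with miR-34a, against 20.8, 18.8 and 20.5 CPM in the control, a log2 fold change of -0.75 ± 0.10 (SE, edgeR adjusted p = 8.0e-06). MYC, a driver of growth, stood at 106 ± 2.25 CPM with miR-34a and 138 ± 5.22 CPM in the control (SD, n = 3; log2 fold change -0.38). KIT itself holds 2 matches of the 7mer or 8mer kind in the 3′ UTR and MYC only a 6mer.

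Among the 21 genes that the naming rule took from these lists, 7 of the 13 that fell held a 7mer or 8mer match in the 3′ UTR, and none of the 8 that rose did. CDK6 held 3 matches, KIT and E2F5 2 each, and CCND1, CCND3, SKI and TK1 1 each, whereas CDK4 and MCM3 held none and PIMREG, GMNN, GINS1 and MYC a 6mer only. These genes were picked for their fold change, so the counts describe them and no more. Among all genes with a 3′ UTR of at least 50 bases, such a match was held by 48.0% of the 1091 that fell and 14.3% of the 872 that rose.

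**Figure D4:**
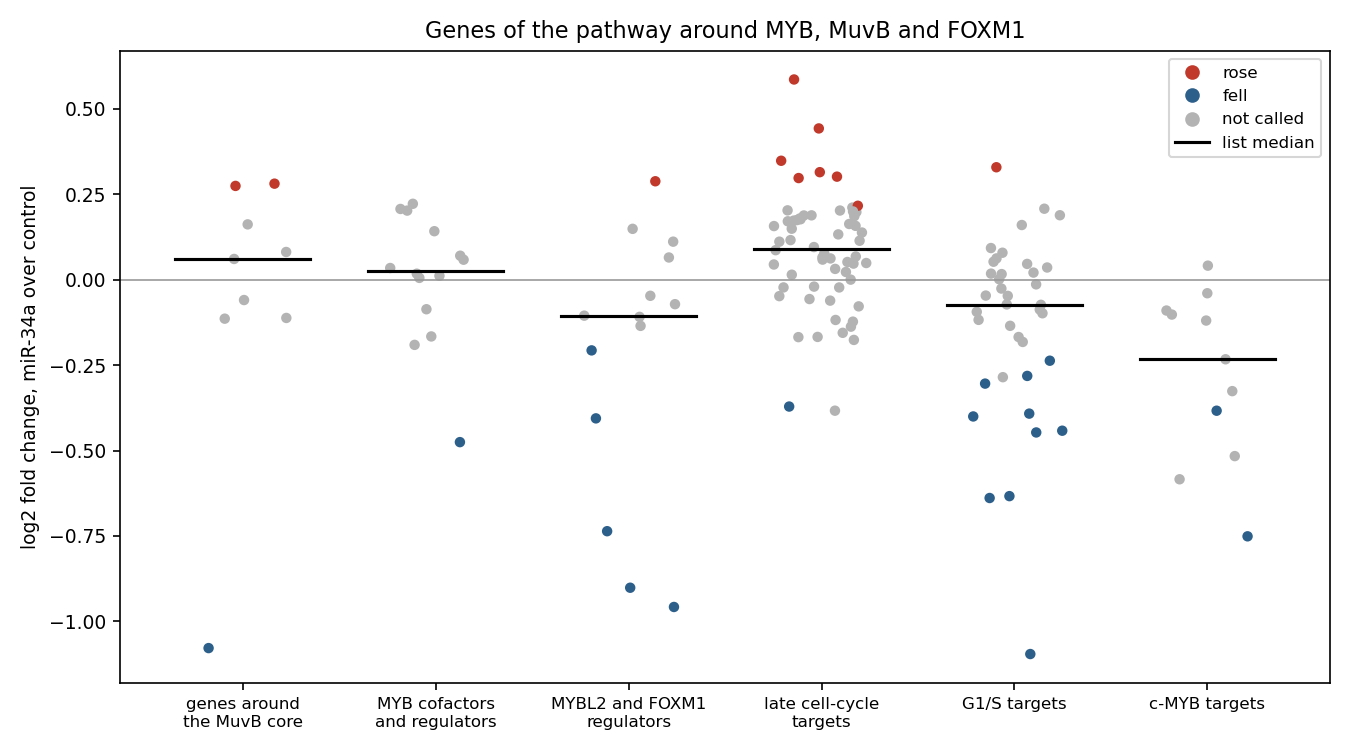
Log2 fold change, miR-34a over control (vertical axis), of the tested genes of 6 lists around MYB, MuvB and FOXM1. Points are genes, red where they rose, blue where they fell and grey where they did not pass; the black line is the list median, 0.09 for the late cell-cycle genes and -0.07 for the G1/S genes.

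The expression pattern of MYB, the gene of the 8 with the largest change, was nearest to that of CDK6, ARHGAP1, LCLAT1, TMEM140 and PACS1. The measure was the Euclidean distance of log2 CPM, centred on each gene's mean, over the 6 libraries, among 10261 genes whose mean log2 CPM reached 3. MYB itself, at a mean of 2.97 CPM with miR-34a and 5.87 CPM in the control, lay below that floor. The distances ranged from 0.229 to 0.258, and no background distance was computed. CDK6, the nearest, had a log2 fold change of -0.90, ARHGAP1, a GTPase-activating protein, one of -0.94, and the acyltransferase LCLAT1 one of -0.83. CDK6, ARHGAP1, LCLAT1 and PACS1 each held at least 1 match of the 7mer or 8mer kind in the 3′ UTR, and TMEM140 held none. All 5 genes were picked for a pattern like that of MYB and all fell, and 48.0% of all fallen genes with a 3′ UTR of at least 50 bases held such a match.

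Promoter sequences of RefSeq, from 250 bases before to 50 after the transcription start (GRCh38.p14), were found for 6 of the 8 genes, those other than MYBL1 and FOXM1. They were searched on both strands for the CHR element TTTGAA or TTCGAA, the E2F core TTCCCGC with its variants TTGGCGC and also TTCGCGC or else TTGCCGC, the MYB core AACNG and the CCAAT box. A gene could have more than 1 window: LIN9 had 3, LIN37 2 and LIN54 2, against 1 each for MYB, MYBL2 and LIN52. More sequence was therefore searched in LIN9, LIN37 and LIN54, and the shares over all genes are not adjusted for this. The CHR element, which LIN54 itself binds, was found in LIN9, LIN37 and LIN54. It was found in 19.5% of all 27305 genes with a promoter window, and in 16.4% of all 35116 windows. Excerpts around it, with the element in capitals, show its setting.
LIN9 (minus strand, chr1:226309208-226309235): cgagctccgcaTTCGAAcctccctcgca
LIN54 (minus strand, chr4:83010907-83010934): gcccttgtgcgTTTGAAggttggcgggg
LIN37 (plus strand, chr19:35748621-35748648): cgaagctcatcTTTGAActgtccccgcc
In LIN37 the element overlaps a MYB core (AACTG). LIN9 holds another CHR element, TTTGAA, at its start site.

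The E2F core was found in LIN9 and LIN52, and in 15.3% of all genes. The MYB core, a short word, was found in 5 of the 6 genes and in 80.5% of all genes, and CCAAT in LIN37 and LIN52 and in 39.7% of all genes. After the sequences had been seen, the word TTGGCGG was added. It was found in MYB, MYBL2 and LIN54, and in 4.18% of all genes. Because the word was taken from these promoters, no weight is put on that comparison. LIN54 was not called, and MYBL1 and FOXM1 had no promoter window. A link between the word and the direction of change was not tested. Excerpts give its place in MYB and MYBL2.
MYB (plus strand, chr6:135181237-135181265): gggcgccagatTTGGCGGgagggggagtg
MYBL2 (plus strand, chr20:43667062-43667090): cgccgacgcgcTTGGCGGgagatagaaaa
In LIN54 the word lies 2 bases after the CHR element, in the excerpt above. A match to a word says nothing of binding, and no binding was measured here.

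The libraries held between 24728662 and 36650331 counts. Keratin, vimentin, cadherin, neurofilament and PAX2 genes, 8 markers detected in HEK293 cells, all passed the filter on low counts; 3 of the 8, INA, NEFL and NEFM, fell with miR-34a, against 6.70% of all tested genes. Of 11 genes that mark blood, liver, muscle, endothelium or fibroblasts, COL1A1 passed the filter, and it was not called by edgeR (0 at an unadjusted p under 0.05, and 0 by DESeq2). The summed level of these 11 ranged from 21.7 to 23.8 CPM with miR-34a and from 21.9 to 28.1 CPM in the control, most of it from COL1A1, and CD3E, MYH1 and DCN had no count in any library. Their part in the results above was not tested.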

How the data were processed

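The authors deposited raw read counts per Ensembl gene for 6 HEK293T libraries, with no normalization, per the file headers and values. Per the submitters' processing notes, the build was GRCh38, and the tools named were featureCounts (Subread 2.0.3), STAR 2.7.11a and edgeR 3.42.4. Not given in the sources used here are the annotation, the strand setting and the treatment of shared reads. The library kit does not mark strand.

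Genes were filtered with filterByExpr (minimum count 10, minimum total 15), scaled by TMM and tested in edgeR (4.0.16, on R 4.3.3) by quasi-likelihood on group alone, with Benjamini-Hochberg adjustment over 17427 genes (threshold 0.05). Standard errors come from the coefficient and its F value. Each p-value sets the difference between the groups against the spread among these 6 libraries, which is estimated with information shared across genes. Symbols were matched for 42345 of 63140 identifiers. Sites were searched in the GENCODE 29 transcript with the longest coding sequence. The test was checked on simulated data. The chi-square per degree of freedom between libraries of a group was 7.64 to 14.3, so none looked like a duplicate deposit.

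The listed genes and the gene lists were chosen with earlier results of these data known. One gene of the list of other cell types is not reported here and was left out of its sums. Named list genes were up to 4 that fell and 4 that rose per list, those with the largest change. Alternatives were DESeq2 1.42.0 and its size factors, library size only, other filters, a replicate block and leaving out each library.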

Additional observations from a re-analysis of the deposited data

How the results depend on the processing

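MYB, MYBL1, MYBL2, LIN37 and LIN54 kept their direction and their side of the threshold under all 12 alternatives run for each. No alternative turned the direction of any of the 8 genes or of the 25 other named genes. With 1 library left out, log2 fold changes ranged from 0.23 to 0.32 for LIN9, from 0.26 to 0.31 for LIN52 and from -0.27 to -0.20 for FOXM1, each with calls lost as given above. Over those 6 fits the genes that fell numbered 727 to 1394 and those that rose 525 to 1287. Among list genes, 0 to 2 of the 9 genes around the MuvB core rose. Of the c-MYB cofactors 1 to 2 fell and 0 to 2 rose, and of the late cell-cycle genes 1 to 2 fell and 4 to 13 rose. Of the G1/S genes 8 to 11 fell and 1 to 3 rose, and of the MYBL2 and FOXM1 regulators 4 to 5 fell. Late cell-cycle genes that rose numbered 13 with library size only, 11 with no filter and 14 by DESeq2; for the G1/S genes the numbers were 2, 2 and 3. DESeq2 called 2 c-MYB cofactors lower, and 1 rose with no filter. The cause of these differences was not tested.

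No pairing of the libraries by the replicate numbers of the titles was seen. The deviations of same-numbered libraries from their group means correlated at -0.025, 0.022 and -0.076, and those of differently numbered libraries at -0.061 to 0.088. These correlations cannot show that the libraries were not prepared in pairs. With the replicate block 1023 genes fell and 807 rose, and FOXM1 had a log2 fold change of -0.23 with an adjusted p of 0.068; it changed no other call among the 8 genes.

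With 6mers counted, MYB held 2 sites in the 3′ UTR and LIN52 1. The transcript with the longest 3′ UTR gave the same site counts. In a window from 150 bases before the start, the CHR element remained in 2 genes, the MYB core in 4 and CCAAT in 1. Read depth limits MYB and LIN37, at 73 to 188 reads a library.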
